A study of Mus musculus with 6 samples.

Results

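The genes described here encode the leukocyte integrins and a selectin ligand: the alpha subunits Itgal, Itgam, Itgax, Itgad, Itgae and Itga4, the beta subunits Itgb2 and Itgb7, and Selplg. These 9 members, chosen by name, were looked up among the 24346 gene symbols of an RNA-sequencing data set, and all were found. Selplg encodes PSGL-1, a ligand of selectins, and no selectin is itself a member.

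Tumor endothelial cells (ECs) were sorted as CD31-positive, CD45-negative cells from subcutaneous tumors of MC38, a mouse colon carcinoma line, grown in C57BL/6 mice. Samples from 3 WT mice were compared with samples from 3 Apelin-KO mice, which lack the Apelin gene Apln on the same C57BL/6 background, with no cell type named for the deletion. Mice were 8 to 10 weeks old, tumors were taken at day 19, and the sample titles of both groups also carry the word saline. CD45 is the pan-leukocyte protein encoded by Ptprc, so the gate was set against the cells in which these integrins are best known.

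Leukocytes leave the blood in steps. PSGL-1 on the leukocyte binds selectins and lets the cell roll along the vessel wall. Integrins, each a pair of an alpha and a beta subunit, then hold the cell in place once chemokine signals have switched them to their binding state. The beta2 subunit pairs with the products of Itgal (LFA-1), Itgam (Mac-1), Itgax (CD11c) and Itgad (CD11d). LFA-1 serves arrest and contact formation of lymphocytes, Mac-1 is abundant on neutrophils, monocytes and macrophages, and CD11c marks many dendritic cells and some macrophages. The alpha4 subunit pairs with beta7 or with the widely made beta1 and binds VCAM-1, MAdCAM-1 and fibronectin. The alphaE subunit pairs with beta7 and holds intraepithelial T cells to E-cadherin.

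In the GENCODE annotation of GRCm38, 4 of the 9 members lie on chromosome 7. Itgal spans chr7:127296260-127335138 on the plus strand. Farther along the same strand, Itgam, Itgax and Itgad follow each other at chr7:128062640-128118491, chr7:128129547-128150657 and chr7:128154376-128223816. Itgb2, their common partner, lies on another chromosome, at chr10:77530252-77565708. The other members are Itga4 at chr2:79255426-79333123, Itgae at chr11:73090583-73147446, Itgb7 at chr15:102215995-102231944 and Selplg at chr5:113818536-113832644, the last pair on the minus strand.

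Itgam and Itgax are neighbours, and the bases before their start sites are shown because Itgam had the highest level of the beta2-binding alpha subunits in every sample while Itgax was low. The sequences are those of RefSeq (GRCm38.p6), plus strand, at chr7:128062390-128062639 for Itgam and chr7:128129300-128129549 for Itgax. Capitals mark GAGGAA or its reverse complement TTCCTC, core letters of sites bound by the myeloid factor PU.1.
Itgam: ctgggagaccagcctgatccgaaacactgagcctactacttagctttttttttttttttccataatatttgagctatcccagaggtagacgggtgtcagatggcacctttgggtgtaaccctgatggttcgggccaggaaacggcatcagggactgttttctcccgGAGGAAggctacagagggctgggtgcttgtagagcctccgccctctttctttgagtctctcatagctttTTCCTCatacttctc
Itgax: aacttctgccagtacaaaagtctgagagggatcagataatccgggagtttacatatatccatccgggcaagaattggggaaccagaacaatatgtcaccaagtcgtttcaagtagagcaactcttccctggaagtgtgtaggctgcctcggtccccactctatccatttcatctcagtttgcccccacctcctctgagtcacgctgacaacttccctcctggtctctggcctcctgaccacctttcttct
The letters occur at 2 places before Itgam, with first bases at -84 and -15 from the start site, and at none before Itgax. An upstream sequence was matched for 4 of the 9 members (Itgam, Itgax, Itga4 and Itgb7), and Itgam was the 1 member with the letters in its 250 bases. Such letters are common, since 7639 of 32851 promoters of that length held them on either strand (23.3%). A match describes the sequence and is not a binding site. The lack of this exact string does not show that a sequence is not bound by PU.1. Whether either bears on the levels of Itgam and Itgax was not tested.

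Expression was deposited as FPKM (fragments per kilobase of transcript and per unit of library depth), so levels can be set side by side between genes per length. Each library had an estimated 8940000 to 10150000 reads, worked out from the step that 1 read makes in low FPKM. Apln, the deleted gene, was at 457 ± 40.7 FPKM in WT and 17.3 ± 7.2 FPKM in Apelin-KO samples (SD, n = 3 each), and its log2 fold change of 4.73 had an adjusted p of 0.00747 in limma. It was the 1 gene of 10964 tested with an adjusted p under 0.05 (0.00912% of the genes), so no member passed that threshold. All 15 endothelial markers looked up were at a mean of 1 FPKM or more, with a summed level of 5810 to 7070 FPKM in WT and 7240 to 7800 FPKM in Apelin-KO samples. Log2 fold changes below are WT minus Apelin-KO on the scale log2(FPKM + 1), which understates the change of low genes. With 3 samples against 3, an exact permutation p cannot be below 0.1. A limma p-value sets a difference against the spread between these samples only, with each gene's variance drawn toward that of all genes tested.

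The members were low in these sorted cells. Itgad was listed at 0 in all 6 samples, and the other 8 members were above 0 in all 6. Among genes above 0, the mean levels of Itgb2 and Itgam stood at percentiles 47.5 and 46.8, Selplg at 38.3, and the remaining 5 between 19.6 (Itgae) and 28 (Itgal). In WT samples the order of the mean levels was Itgam (5.62 ± 3.78 FPKM), Itgb2 (5.53 ± 3.17), Selplg (2.57 ± 1.51), Itgal (0.844 ± 0.268), Itgax (0.661 ± 0.37), Itgb7 (0.601 ± 0.274), Itga4 (0.246 ± 0.101) and Itgae (0.182 ± 0.265). Neighbours in that order differed by more than the larger of their SDs at 2 steps only, from Selplg to Itgal and from Itgb7 to Itga4. In Apelin-KO samples Itgb2 (1.78 ± 1.58 FPKM), Itgam (1.34 ± 0.957) and Selplg (0.878 ± 0.301) again led, and the step from Selplg down to Itgb7 (0.352 ± 0.254) was the only one larger than both SDs.

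For the 8 members above 0, the WT mean was higher than the Apelin-KO mean in 8 of 8 (for Itgae the log2 fold change turned below 0 with smaller pseudocounts), where 51.4% of all genes above 0 had a log2 fold change above 0. The samples also kept a common order. WT 2 was the highest sample for all 8, WT 3 was the lowest WT sample for 7, Apelin-KO 2 was the highest Apelin-KO sample for 6, and Apelin-KO 1 was the lowest of all samples for 5. The groups overlapped for 6 of the 8, and did not for Itgal and Selplg. That pattern, WT above Apelin-KO without overlap, was met by 6.65% of the genes above 0. In these bulk samples, fewer leukocytes and less RNA per leukocyte cannot be told apart.

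**Figure D1:**
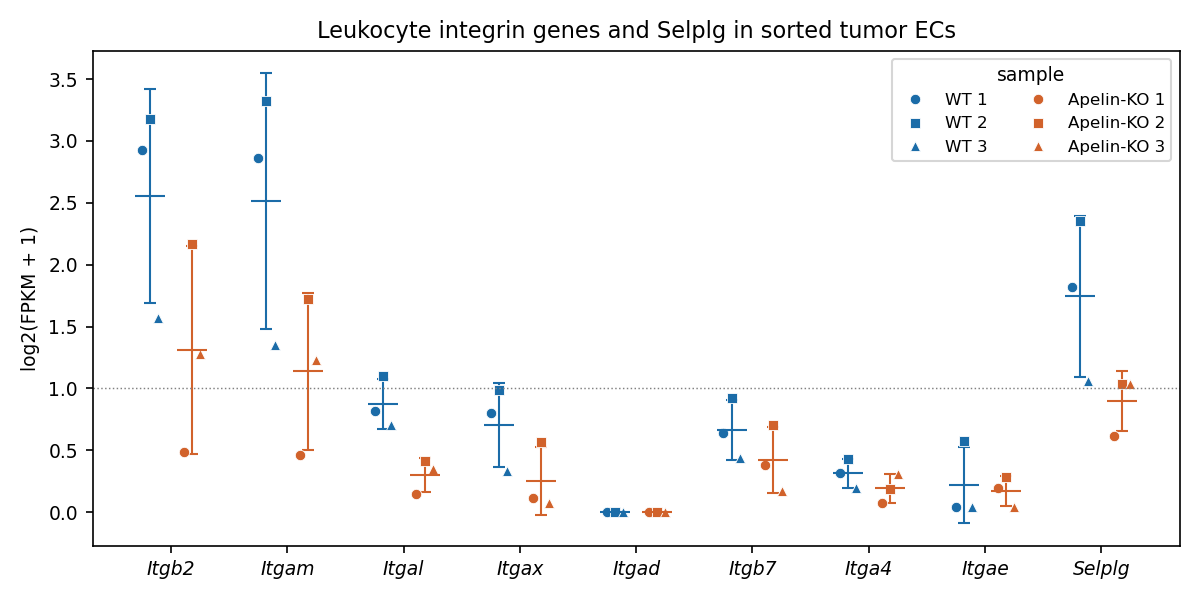
Level of each of the 9 members, as log2(FPKM + 1), in WT (blue) and Apelin-KO (orange) samples, with 1 symbol per sample, a horizontal bar for the group mean and a vertical bar for the SD (n = 3). The dotted line marks 1 FPKM, which the means of Itgb2, Itgam and Selplg over the 6 samples exceed, Itgad is listed at 0 throughout, and WT 2 is the highest sample of the other 8.

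The common beta subunit, Itgb2, was at 6.6, 8.025 and 1.961 FPKM in WT 1, 2 and 3. In Apelin-KO 1, 2 and 3 it was at 0.4, 3.502 and 1.426 FPKM. WT 1 and WT 2 lay above every Apelin-KO sample, while WT 3 lay below Apelin-KO 2. Its log2 fold change was 1.24 (SE 0.53, 95% interval -0.02 to 2.5), with an unadjusted p of 0.0523 and an adjusted p of 0.525 in limma. The exact permutation p was 0.2 (n = 3 in each group). Without WT 3 the log2 fold change was 1.74 and without Apelin-KO 2 it was 1.67, with unadjusted p of 0.00794 and 0.018 in limma. Without any of the other 4 samples it was 0.83 (Apelin-KO 1) to 1.23 (Apelin-KO 3), with unadjusted p of 0.109 to 0.165 in limma. These levels came from an estimated 10.4 reads in Apelin-KO 1 and 199 reads in WT 2, the sparsest and the fullest sample.

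Itgam, the alpha subunit of Mac-1, was at 6.281, 9.032 and 1.551 FPKM in WT samples, against 0.38, 2.294 and 1.34 FPKM in Apelin-KO samples, in the order of their numbers. As for Itgb2, WT 3 lay below Apelin-KO 2, so the groups overlapped. The ratio of the means was 4.2, and the log2 fold change of 1.38 (SE 0.53, 95% interval 0.11 to 2.64) had an unadjusted p of 0.0366 and an adjusted p of 0.515 in limma. By the exact permutation test, p was 0.2 (n = 3 in each group). The log2 fold change was 1.2 without WT 1, 0.97 without WT 2, 1.04 without Apelin-KO 1 and 1.42 without Apelin-KO 3, and in limma the unadjusted p then lay between 0.0723 and 0.118. Without WT 3 it was 1.96 and without Apelin-KO 2 it was 1.67, with unadjusted p of 0.00149 and 0.0313 in limma. In the annotation Itgam shares 3450 exon bases with Gm49368, a gene model on the same strand with no row in the data, so reads of either could have been counted for Itgam.

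Itgal, the alpha subunit of LFA-1, was at 0.761, 1.144 and 0.627 FPKM in WT samples, against 0.106, 0.328 and 0.272 FPKM in Apelin-KO samples. Its groups did not overlap, with WT 3 the lowest WT sample and Apelin-KO 2 the highest of the other group, and the ratio of the means was 3.59. Estimated reads were 28.7 to 51.4 in WT and 4.97 to 16.7 in Apelin-KO samples. With a mean under 1 FPKM, Itgal was not among the 10964 genes tested. In the limma fit without that filter, over 16341 genes, its log2 fold change was 0.57 (SE 0.13, 95% interval 0.25 to 0.89), with an unadjusted p of 0.00472 and an adjusted p of 0.51. In that fit 0.0122% of the genes had an adjusted p under 0.05. Its exact permutation p was 0.1, the smallest that 3 against 3 can give.

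Itgax, which encodes CD11c, was at 0.743, 0.983 and 0.256 FPKM in WT samples, against 0.083, 0.482 and 0.055 FPKM in Apelin-KO samples. WT 3 lay below Apelin-KO 2, and the 2 lowest samples rested on an estimated 1.99 and 2.98 reads. Without the filter its log2 fold change was 0.45 (95% interval -0.07 to 0.98), with an adjusted p of 0.596 in limma. Itgad, the neighbouring gene for CD11d, had no value above 0, while its transcripts share 240 words of 75 bases (the read length) with those of Itgax, so part of the reads of this pair could not be told apart. No other pair of members shared such a word.

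Since FPKM is per length, the 4 alpha subunits that pair with beta2 can be set against each other within a sample. Their summed level was 7.79, 11.2 and 2.43 FPKM in WT and 0.569, 3.1 and 1.67 FPKM in Apelin-KO samples. Itgam made up 80.7%, 80.9% and 63.7% of the sum in WT and 66.8%, 73.9% and 80.4% in Apelin-KO samples. The group means, 75.1% and 73.7%, differed by less than the spread between samples (exact permutation p = 0.8, n = 3 in each group). Itgal held 9.78% to 25.8% of the sum in WT and 10.6% to 18.6% in Apelin-KO samples (exact permutation p = 1), and Itgax 8.81% to 10.5% against 3.3% to 15.5% (exact permutation p = 0.9). Itgb2 followed the sum closely, with log2 ratios of -0.24, -0.48 and -0.31 in WT and -0.51, 0.17 and -0.23 in Apelin-KO samples (exact permutation p = 0.6). The summed level of the alpha subunits varied between samples far more than its make-up.

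**Figure D2:**
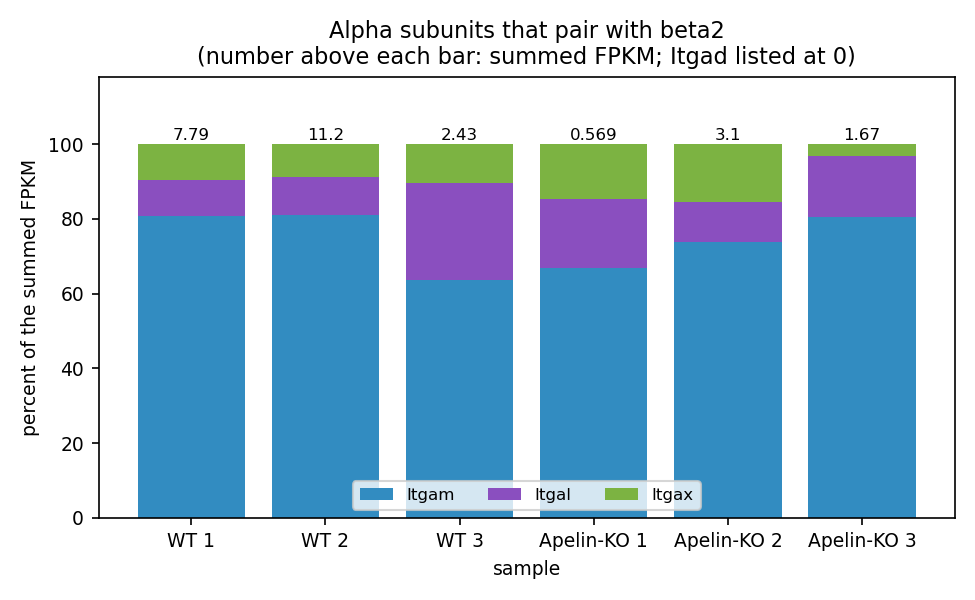
Share of Itgam, Itgal and Itgax in the summed FPKM of the 4 alpha subunits that pair with beta2, in percent for each sample, with that sum above each bar. Itgam takes 63.7% to 80.9% of the sum in the 6 samples, and Itgad, listed at 0, takes none.

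Itgb7, the beta subunit that pairs with alpha4 and alphaE, was at 0.556, 0.895 and 0.352 FPKM in WT samples, against 0.301, 0.628 and 0.128 FPKM in Apelin-KO samples. The groups overlapped, with Apelin-KO 2 above WT 1 and WT 3. Its log2 fold change without the filter was 0.25, and the 95% interval of -0.2 to 0.69 spans 0. These levels rest on an estimated 3 to 19.9 reads a sample.

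Itga4 was at 0.244, 0.348 and 0.146 FPKM in WT samples, against 0.055, 0.141 and 0.24 FPKM in Apelin-KO samples. Apelin-KO 3 lay above WT 3 and just below WT 1, so the groups overlapped, and the log2 fold change was 0.12 (95% interval -0.11 to 0.36). The 2 possible partners of alpha4 differed widely in level. Itgb1, whose product is the common beta1 subunit, was at 619 ± 62.3 FPKM in WT and 662 ± 75.2 FPKM in Apelin-KO samples (SD, n = 3 each), with a log2 fold change of -0.09 and an adjusted p of 0.847 in limma. On the log2 scale the ratio of Itga4 to Itgb7 was -1.36 to -1.19 in WT, and -2.45, -2.16 and 0.91 in Apelin-KO samples, which spread far more widely. Itga4 shares 1124 exon bases with Cerkl on the other strand, and the strand setting of the counting is not given in the sources used here.

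Itgae, the lowest member above 0, was at 0.027, 0.488 and 0.03 FPKM in WT samples, against 0.147, 0.214 and 0.029 FPKM in Apelin-KO samples. WT 2 alone lifted the WT mean, and WT 1, WT 3 and Apelin-KO 3 held about 1 read each. The log2 fold change was 0.05 (95% interval -0.36 to 0.45) and turned to -0.13 without WT 2, so no direction can be given for this gene.

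Selplg, the PSGL-1 gene, was at 2.532, 4.099 and 1.086 FPKM in WT samples, against 0.531, 1.05 and 1.053 FPKM in Apelin-KO samples. The groups did not overlap, but WT 3 and Apelin-KO 3 were nearly equal, at an estimated 20.9 and 21 reads. The ratio of the means was 2.93, and the log2 fold change of 0.85 (SE 0.31, 95% interval 0.11 to 1.59) had an unadjusted p of 0.0304 and an adjusted p of 0.513 in limma. Its exact permutation p was 0.1 (n = 3 in each group), the smallest this design allows. Leaving out WT 3 gave a log2 fold change of 1.19, and leaving out any other sample gave 0.54 to 0.92 with an unadjusted p of 0.0506 to 0.0951 in limma.

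Of the 3 members with a mean of at least 1 FPKM, 2 (Itgam and Selplg) thus had an unadjusted p under 0.05 in limma with a higher WT level, where 5.17% of the 10964 genes did so and 4.25% did in the other direction. Under quantile normalization these counts over all genes changed from 567 higher and 466 lower to 494 and 552. The median log2 fold change was 1.24 over the 3 members and -0.01 over all genes tested. Without the filter, 2 of the 8 members above 0 (Itgal and Selplg) passed, beside 4.93% of 16341 genes. The median log2 fold change was then 0.51 over the 8 members and 0 over all genes. A filter at a mean of 0.1 FPKM, added after seeing the data, let 4 members pass (Itgal, Itgam, Itgb2 and Selplg), beside 5.46% of 13630 genes.

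**Figure D3:**
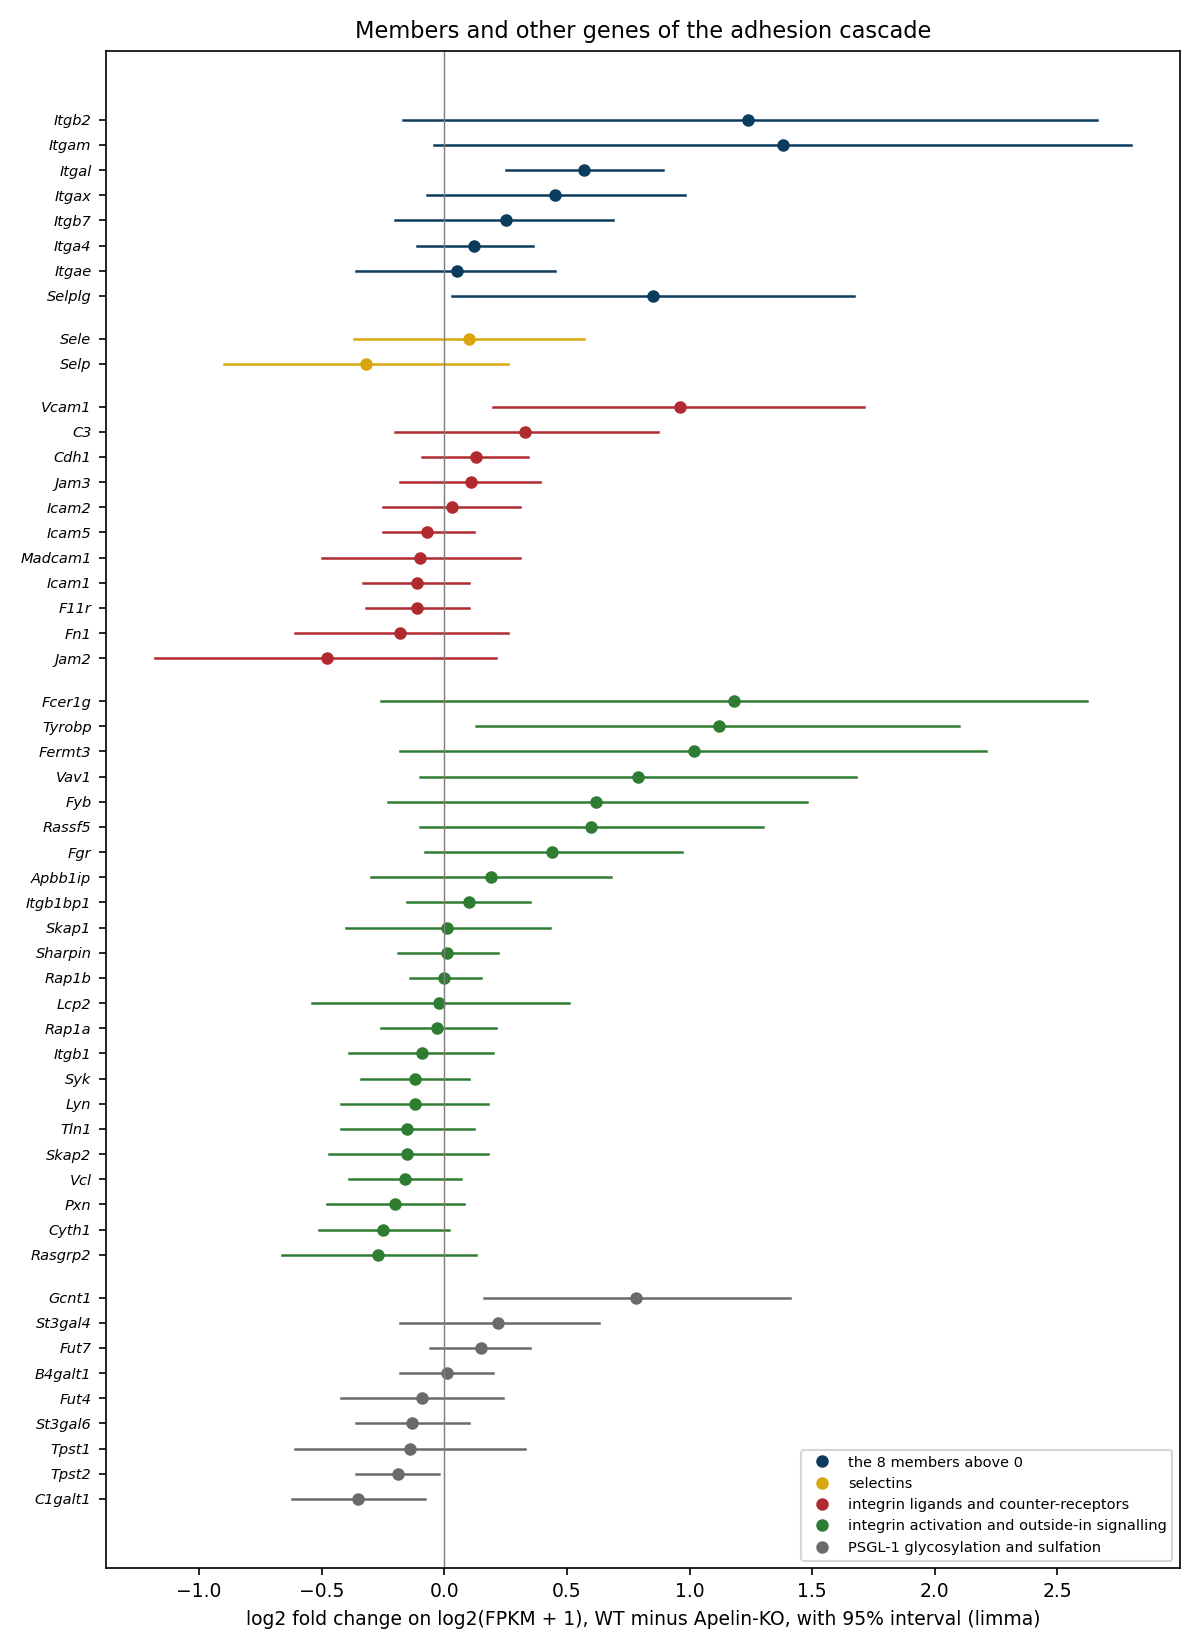
Log2 fold change (WT minus Apelin-KO, on log2(FPKM + 1)) with its 95% interval from the limma fit without a filter on low values, for the 8 members above 0 and for the genes reported here from 4 lists of the adhesion cascade. The intervals of Itgal and Selplg lie above 0 and those of the other 6 members include 0, while in the lists Vcam1, Tyrobp and Gcnt1 lie above and C1galt1 and Tpst2 below.

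Because the sort removed CD45-positive cells, the members were also read against Ptprc, the CD45 gene. Ptprc itself was at 3.131, 4.841 and 1.265 FPKM in WT samples, against 0.043, 1.695 and 0.74 FPKM in Apelin-KO samples, the order of samples that Itgb2 and Itgam also had. Its log2 fold change was 1.16, with an unadjusted p of 0.0314 and an adjusted p of 0.513 in limma. Per unit of Ptprc, the log2 ratio of Itgb2 was 1.08, 0.73 and 0.63 in WT and 3.22, 1.05 and 0.95 in Apelin-KO samples (exact permutation p = 0.3, n = 3 in each group). For Itgam the ratios were 1, 0.9 and 0.29 against 3.14, 0.44 and 0.86 (exact permutation p = 0.7). For Selplg they were -0.31, -0.24 and -0.22 against 3.63, -0.69 and 0.51 (exact permutation p = 0.4).

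In each of these 3 genes, the Apelin-KO 1 ratio stands far above the other samples, and it rests on an estimated 2.23 reads of Ptprc. All 8 members had overlapping groups per unit of Ptprc, with the mean ratio lower in WT (differences of -3.23 for Itgae to -0.69 for Itgax). Without Apelin-KO 1 the differences shrank to -0.18 for Itgb2 and -0.16 for Selplg, and turned to 0.09 for Itgam, 0.2 for Itgal and 0.56 for Itgax. With the mean log2 level of 8 pan-leukocyte markers in place of Ptprc, the difference was above 0 for Itgal (0.68), Itgam (0.81), Itgax (0.86), Itgb2 (0.63) and Selplg (0.15), and below 0 for Itga4, Itgb7 and Itgae. The direction of the difference thus turned with the reference for Itgal, Itgam, Itgax, Itgb2 and Selplg, and was the same under both for Itga4, Itgb7 and Itgae. For Itgal alone the groups did not overlap with that reference (exact permutation p = 0.1, n = 3 in each group). Ptprc is itself among those 8 markers, and their mean varied less between samples than Ptprc did. The 8 markers summed to 162 FPKM in Apelin-KO 1 and 178 to 295 FPKM in WT samples. Ptprc was at 0.043 FPKM in Apelin-KO 1 and 1.265 to 4.841 FPKM in WT samples. Which reference better follows the leukocyte content was not tested.

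The marker lists of cell types moved as follows. Of the 10964 genes tested, 5.17% had an unadjusted p under 0.05 in limma and were higher in WT, and 4.25% were lower. Among genes above 0, 51.4% had a log2 fold change above 0. Markers of 1 list are not independent of each other. The 12 macrophage and monocyte markers summed to 230 to 883 FPKM in WT and 93.8 to 279 FPKM in Apelin-KO samples, 12 of 12 had the higher mean in WT, and 6 had an unadjusted p under 0.05 in limma. The sum of the 8 pan-leukocyte markers was 178 to 295 FPKM against 162 to 213 FPKM, with 7 of 8 higher in WT and 4 at an unadjusted p under 0.05 in limma. Markers of lymphocytes and granulocytes were low, with sums of 11.7 to 13.7 FPKM against 10.7 to 11.4 FPKM for T cells, carried by Lck and Cd247, 3.07 to 6.59 against 0.645 to 2.57 for NK cells, 0.207 to 0.813 against 0 to 0.519 for B cells, and 1.06 to 2.39 against 1.12 to 3.36 for neutrophils, with Cxcr2 at 0. Dendritic cell markers, of which 2 of 6 reached a mean of 1 FPKM, summed to 22 to 24.1 against 23.7 to 25.5 FPKM. Platelet markers, of which 2 of 5 did, summed to 8.47 to 10.4 against 6.25 to 8.8 FPKM. Fibroblast markers summed to 192 to 332 against 125 to 197 FPKM, with 4 of 7 at an unadjusted p under 0.05 in limma and higher in WT, pericyte markers to 568 to 739 against 642 to 745 FPKM, and epithelial markers of tumor cells to 0.545 to 1.19 against 0.136 to 0.405 FPKM. All 15 endothelial markers had the lower mean in WT, and 4 of them had an unadjusted p under 0.05 in limma. So did 1 NK cell marker, higher in WT, and 1 pericyte marker, lower in WT, and no marker of the lists left. The part of these cell types in the levels of the members was not tested.

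**Figure D4:**
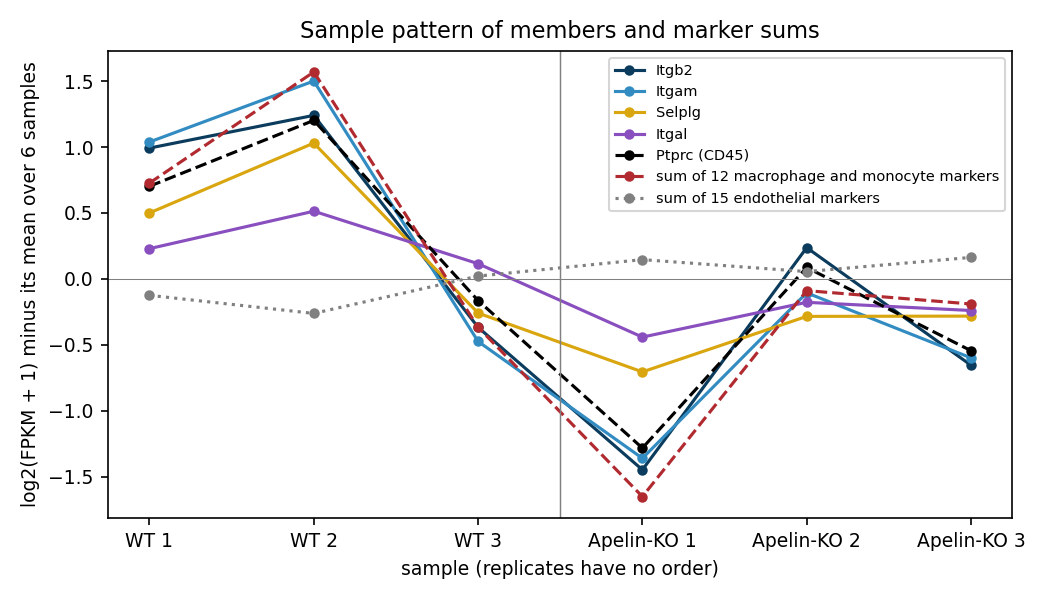
Level of 4 members, Ptprc and the summed macrophage and endothelial markers in each sample, as log2(FPKM + 1) minus its own mean over the 6 samples, with lines joining the points of 1 gene or sum. Itgb2, Itgam, Ptprc and the macrophage sum are all highest in WT 2 and lowest in Apelin-KO 1, and the endothelial sum is lowest in WT 2.

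The genes with the profile over the 6 samples most like that of Itgb2 were Fcgr2b (an inhibitory Fc receptor), Fcer1g (an Fc receptor signalling chain), Ccl5 (a chemokine), Csf1r (the macrophage growth factor receptor) and H2-Ab1 (an MHC class II chain). Their root mean square differences from it were 0.127 to 0.166 on the log2 scale, among 7878 genes whose mean reached 5 FPKM. Itgam differed from Itgb2 by 0.187 and Selplg by 0.458. For Selplg the nearest were Pcdh18, Sdc2, Alox5ap, Tlr2 and Tmem119 (0.0917 to 0.127). For Itga4, whose low level leaves a nearly flat profile on this scale, they were Mier1, Nup153, Ube3a, Rnf13 and Cstf1 (0.0207 to 0.0364). Likeness over 6 samples is a description.

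Among the selectins that PSGL-1 binds, Selp (P-selectin) was at 14.2 ± 3.91 FPKM in WT and 17.8 ± 3.62 FPKM in Apelin-KO samples, and Sele (E-selectin) at 3.03 ± 0.847 and 2.72 ± 0.523 FPKM (SD, n = 3 each). The groups overlapped for both, and 0 of the 2 had an unadjusted p under 0.05 in limma.

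The ligands of these integrins ranged widely in level. In the list of 15 ligands and counter-receptors, Fn1 (fibronectin, 480 FPKM over all samples), Icam2 (358 FPKM) and F11r (333 FPKM, the junctional ligand JAM-A of LFA-1) were highest, and 4 (Icam4, Fga, Fgb and Fgg) were at 0 in all samples. Icam1, the main ligand of LFA-1 and Mac-1, was at 27.4 ± 1.8 FPKM in WT and 29.7 ± 2.39 FPKM in Apelin-KO samples. Of the 8 tested, 1 had an unadjusted p under 0.05. It was Vcam1, the ligand of alpha4 integrins, at 62.1 ± 21.1 FPKM in WT and 31.3 ± 8.72 FPKM in Apelin-KO samples, with a log2 fold change of 0.96, an unadjusted p of 0.0129 and an adjusted p of 0.501 in limma. By qRT-PCR in tumor ECs, the study reported no difference between the genotypes for VCAM-1, ICAM-1 and E-selectin. The median over the 8 was -0.04.

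Of 24 genes of integrin activation and signalling, 20 were tested. Tyrobp, the adaptor DAP12, was at 55.5 ± 27.7 and 23.6 ± 6.39 FPKM in WT and Apelin-KO samples (log2 fold change 1.12, unadjusted p = 0.0202 and adjusted p = 0.503 in limma). The highest genes of the list were Itgb1, Rap1b (a small GTPase that switches integrins on, 485 FPKM over all samples) and Vcl (vinculin, 70.8 FPKM), and their log2 fold changes lay at or below 0. The median over the 20 was -0.02.

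PSGL-1 binds selectins only once it carries the right sugars and sulfates. Of the 9 genes that build them, 8 were tested. Gcnt1, the enzyme that branches the O-glycan, was at 4.6 ± 1.22 FPKM in WT and 2.28 ± 0.971 FPKM in Apelin-KO samples (log2 fold change 0.78, unadjusted p = 0.0147 and adjusted p = 0.501 in limma). C1galt1, which makes the core that Gcnt1 branches, was at 15 ± 1.74 and 19.4 ± 1.63 FPKM (log2 fold change -0.35, unadjusted p = 0.0241 and adjusted p = 0.509 in limma). The highest of the list were Tpst2 (a sulfotransferase, 105 FPKM over all samples), St3gal4 (71.1 FPKM) and St3gal6 (57.2 FPKM), both sialyltransferases. The median over the 8 was -0.11. In none of the 4 lists did a gene have an adjusted p under 0.05.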

How the data were processed

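RNA was sequenced from sorted CD31-positive, CD45-negative tumor ECs of 3 WT and 3 Apelin-KO mice. Per the labels and methods, the authors made stranded mRNA libraries and sequenced 75-base single-end reads. The submitters' processing notes name mm10, TopHat2 2.1.1, Bowtie2 2.2.4 and SAMtools 1.0, while the methods give other versions of these 3 mapping tools. The deposited values are FPKM per gene symbol from Cufflinks 2.2.1, with 3 decimals. The annotation and strand setting are not given in the sources used here.

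FPKM were used as deposited. The 2 genotypes were tested against each other on log2(FPKM + 1) by limma 3.58.1 (R 4.3.3), two-sided, without trend or block, over genes whose mean reached 1 FPKM, with Benjamini-Hochberg adjustment over all genes tested. Members below that mean were read from the fit without the filter. Ratios were compared with exact two-sided permutation tests over samples. Reads per library were estimated from 3742 single-transcript genes, assuming 200-base fragments, which put 68.9% to 72.3% of low values no more than 0.1 away from whole reads (20% by chance). Reads of a member were scaled to its longest transcript. They entered no count test. Both methods were tested on simulated data. Lists of pathway genes and markers were written by hand, and Ly6g had no row in the data. All members, Apln, Ptprc, Selp, Sele, Itgb1, list genes with an unadjusted p under 0.05 or among the 3 highest, and the 5 genes most like Itgb2, Itga4 and Selplg are named. Icam1, Cerkl and Tpst2 were named after their values were seen. Some items of the lists are not reported here. Members and lists were chosen with earlier results of these data known. Annotation (GENCODE, GRCm38) and plots were made in Python 3.11.15 (pandas 2.3.3, numpy 2.4.6, matplotlib 3.10.9).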

Additional observations from a re-analysis of the deposited data

How the results depend on the processing

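For Itgam, Itgb2 and Selplg, the log2 fold change stayed above 0 in all 16 alternatives each, with ranges of 0.97 to 2.06, 0.83 to 1.89 and 0.54 to 1.41, and adjusted p in limma from 0.123 to 0.948. Itgam lost its unadjusted p under 0.05 in 8 of the 16 and Selplg in 6, while Itgb2 gained one in 5. The count of members with such a p, 2 as reported, was 1 with a pseudocount of 0.1 or 0.01, 0 with each gene's own variance, 3 with an intensity trend or the replicate block, 4 with the filter at 0.1 FPKM, and 0 to 3 with 1 sample left out. Itgae changed sign in 4 of 8 alternatives and the other low members in none. Across all genes, the number with an adjusted p under 0.05, 1 as reported, came to 2 without the filter, with a filter at 5 FPKM, with an intensity trend or with 0.01 as pseudocount, 0 with each gene's own variance, and 0 to 3 with 1 sample left out. The genes with an unadjusted p under 0.05 and a higher WT level, 567 as reported, were 330 with the filter at 5 FPKM, where fewer genes were tested, 376 with each gene's own variance, and 312 to 743 with 1 sample left out, and those lower in WT, 466 as reported, were 224 to 537. The cause of the other shifts was not tested.

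Deviations of same-numbered samples from their group means correlated at -0.14, 0.21 and -0.02. WT 2 alone was most like the Apelin-KO sample of its own number. With so few samples this cannot tell whether same-numbered samples shared a batch, and the sample titles do not say. With the replicate block, 1 gene again had an adjusted p under 0.05, and 529 and 364 genes had an unadjusted p under 0.05. Against the pan-leukocyte mean in place of Ptprc, the differences became 0.68 for Itgal, 0.81 for Itgam, 0.63 for Itgb2 and -0.36 for Itga4. With 1 sample left out, differences per unit of Ptprc ran from -1.64 to 0.2 for Itgal, -1.27 to 0.09 for Itgam, -1.79 to 0.56 for Itgax, -4.58 to -1.36 for Itgae, -2.9 to -0.93 for Itga4, -1.32 to -0.18 for Itgb2, -2.95 to -0.28 for Itgb7 and -2.32 to -0.16 for Selplg. Leaving out 1 sample moved the differences in share from -2.03 to 7.12 percentage points for Itgam, -5.16 to 2.83 for Itgal and -5.43 to 0.68 for Itgax, those in the log2 ratio of Itgb2 to its alpha subunits from -0.32 to 0.02, of Itga4 to Itgb7 from -0.65 to 1.03, and of Itgam to Itgal from -0.17 to 0.7. In the ligand list 1 to 2 genes were then higher and 0 to 1 lower at an unadjusted p under 0.05, in the signalling list 1 to 7 were higher, and in the PSGL-1 list 0 to 1 in each direction. Without the filter 2 genes of the PSGL-1 list were lower. Depth limits Itgae, Itgax, Itga4 and Itgb7, which held from about 1 to 33.8 estimated reads a sample.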
